A study of Drosophila melanogaster with 8 samples.

Results

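CG11911, CG3355 and CG13318 are Drosophila melanogaster genes of the trypsin-like serine protease family that stood out on arrays setting larvae with a mutant soluble guanylyl cyclase against control larvae. They were found by gene symbol among the 27648 spots of the arrays. Each had 2 spots, so the 3 genes took up 6 spots, out of 6793 genes that carried a name. They had been chosen from the ratios of these same arrays: CG11911 for its mean in Rover and its difference between the backgrounds, CG3355 for its mean in Rover, and CG13318 for its mean in sitter and over both backgrounds. Their means and differences are therefore given as descriptions, with no test, except the sitter mean of CG3355.

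Total RNA of larvae of the third instar was hybridised to 8 spotted cDNA arrays read in 2 colours, 4 of the Rover background and 4 of the sitter background, which are natural variants of larval foraging. Per the labels, channel 1 held larvae of the plain background, and channel 2 held larvae in which that background was combined with DGCalpha1[3], an allele of a soluble guanylyl cyclase subunit gene. The comparison of interest is whether the mutant-to-control ratio of a gene depends on the background. Replicate 1 of each background was printed in lot A and hybridised for 15.75 hours, and replicates 2 to 4 in lot B for 17.75 hours. The lot labels of the replicate 1 arrays were not identical, and both were taken as lot A. For Cy5 the detector gain was set to 64 for 5 arrays and to 67 or 68 for 3.

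The deposited value is a ratio on a log scale, taken here as log2, since the base is not stated. The channel in the numerator and the dye of each channel are not stated either, so ratios are called only positive or negative, and no direction relative to the mutant is drawn. Ratios are not centred on 0: the medians of the Rover arrays lay between -0.47 and -0.24, and those of the sitter arrays between -0.28 and -0.10. The values hold no signal level, so neither the abundance of a transcript nor the presence of larval tissues could be checked. The labels do not say whether arrays came from separate larvae or extracts, so p-values cover no more than the variation among these arrays, possibly a technical one. RNA came from whole larvae, in which fewer cells of a type and less RNA per cell cannot be told apart.

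Trypsin-like serine proteases cut proteins with a histidine, an aspartate and a serine in the active site, and most are made as inactive precursors that are switched on by cleavage. In fly larvae many digest food protein in the midgut, while clip-domain members act in relays in the blood that lead to Toll signalling and melanisation. Serine protease homologues share the fold but lack a residue of the active site, and serpins are inhibitors that trap active proteases. CG11911 and CG3355 are listed in RefSeq also under the protease names SP103 and SP21, and CG13318 under SPH101, the form used for protease homologues. Whether CG13318 lacks a residue of the active site was not checked. For short, it is counted among the proteases below. CG11911 and CG3355 lie on chromosome arm 2L and CG13318 on 3R, and all are annotated as protein-coding. In the Release 6 gene table CG11911 lies inside the span of the phospholipase C gene Plc21C, and neither of the others overlaps a gene.

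CG11911 had a strongly negative ratio on every Rover array and a ratio near 0 on every sitter array. In Rover it stood at -3.93, -3.68, -4.46 and -3.76 on replicates 1 to 4. In sitter the corresponding values were 0.43, 0.31, -0.04 and 0.05. The groups did not overlap, and the gap between them was several times the range within either. The mean was -3.96 ± 0.35 (SD, n = 4) in Rover, a 15.6-fold imbalance of the channels if the base is 2, and 0.19 ± 0.22 (SD, n = 4) in sitter. Rover minus sitter was -4.15 ± 0.21 (limma SE). Among the 6793 genes CG11911 ranked 1 by size both in Rover and in the difference, which is how it came to be chosen; in sitter 425 genes had a higher mean.

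The duplicate spots of CG11911 lay close together. Their means in Rover were -4.00 and -3.92, and in sitter 0.18 and 0.19. They lay 0.03 to 0.39 apart on an array, with a median gap of 0.16, where genes of 2 spots had a median gap of 0.18. The difference between backgrounds was -4.37 within print lot A, with 1 array each, and -4.07 ± 0.25 (limma SE) within lot B. On the arrays at the lower Cy5 gain alone it was -4.10 ± 0.30 (limma SE). The arrays at the lower gain all belong to lot B. CG11911 was chosen from these same arrays, so the values of the subsets are a description and no separate support.

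CG3355 was positive in Rover and close to 0 in sitter. The Rover arrays gave 1.23, 0.54, 1.89 and 1.32, and the sitter arrays 0.08, 0.26, -0.10 and -0.49. Every Rover array lay above every sitter array, and Rover 2 came closest to them. The mean was 1.25 ± 0.55 (SD, n = 4) in Rover, where 12 genes ranked higher, and -0.06 ± 0.32 (SD, n = 4) in sitter. Rover minus sitter was 1.31 ± 0.29 (limma SE), with 15 genes above it. The sitter mean, which played no part in choosing the gene, did not pass (limma adjusted p = 0.876, negative on 2 of 4 arrays), and it turned to 0.11 (0.713) after centring each array on its median.

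The low value on Rover 2 came from spots that disagreed. There the spots of CG3355 read 1.31 and -0.23, a gap of 1.54 that 1.54% of genes of 2 spots exceeded on that array. On the other 7 arrays the spots lay 0.01 to 0.34 apart. By the first spot alone the Rover mean was 1.43 ± 0.19 (SD, n = 4), and by the second 1.06 ± 0.95 (SD, n = 4). Rover minus sitter was 1.15 within lot A, 1.36 ± 0.37 (limma SE) within lot B and 1.17 ± 0.41 (limma SE) on the arrays at the lower Cy5 gain.

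CG13318 was negative on all 8 arrays, with wide scatter in both backgrounds. In Rover it was at -2.39, -0.98, -1.37 and -0.76. In sitter it was at -2.79, -1.70, -1.19 and -0.45. The groups overlapped over most of their range. In Rover the mean was -1.38 ± 0.72 (SD, n = 4), with 103 genes lower. In sitter it was -1.53 ± 0.98 (SD, n = 4), with 11 genes lower. Rover minus sitter was 0.15 ± 0.51 (limma SE), and its sign turned without Rover replicate 4 (-0.05) or without sitter replicate 1 (-0.26). CG13318 thus lacked the separation of the backgrounds seen for CG11911 and CG3355.

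The print lots differed for CG13318. In each background the array of lot A, also the array of shorter hybridisation, had the most negative value. Within lot B the Rover mean was -1.04 ± 0.31 (SD, n = 3) and the sitter mean -1.11 ± 0.63 (SD, n = 3). The difference between backgrounds was 0.40 within lot A, with 1 array each, and 0.07 ± 0.34 (limma SE) within lot B. With 1 array of lot A per background, the part of the lot in the scatter was not tested.

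Its spots also disagreed more than those of CG11911 and CG3355. On sitter 4 they read -1.28 and 0.38, a gap of 1.65 that 0.164% of genes of 2 spots exceeded there. The gap was 0.91 on Rover 4 and 0.82 on sitter 2, and 0.02 and 0.05 on Rover 1 and Rover 3. Over the 8 arrays the median gap was 0.53. The spot means were -1.33 and -1.42 in Rover and -1.68 and -1.38 in sitter.

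**Figure D1:**
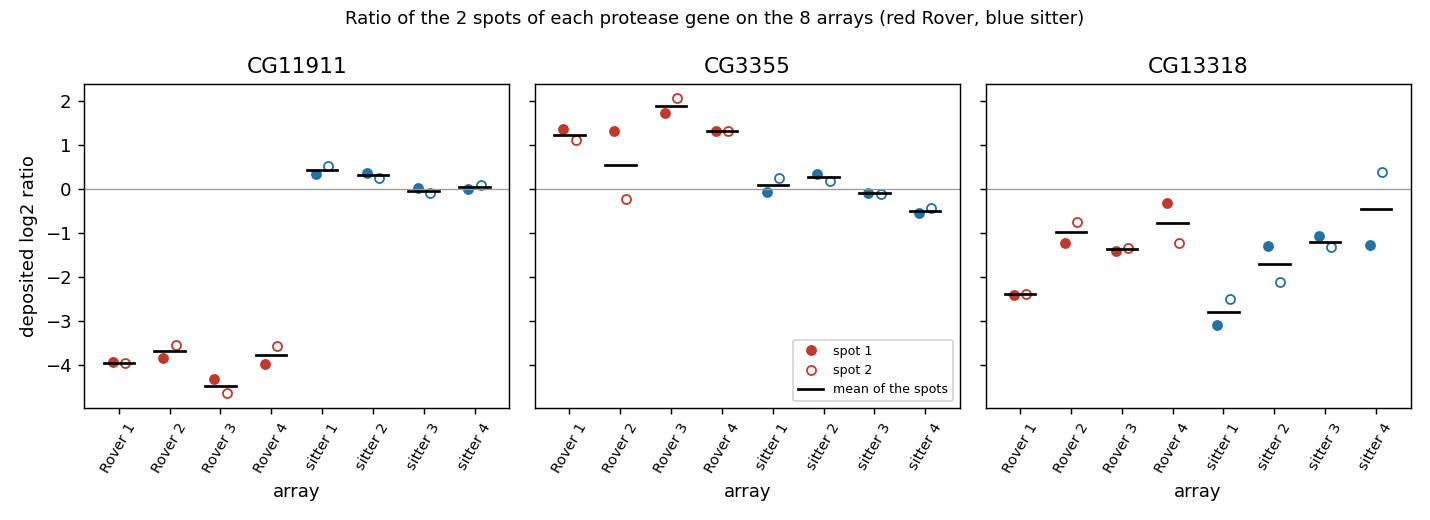
Deposited log2 ratio (vertical axis) of CG11911, CG3355 and CG13318 on each of the 8 arrays (horizontal axis), red for Rover and blue for sitter. Filled and open circles are the 2 spots of a gene and black bars their mean. CG11911 lies between -4.46 and -3.68 in Rover and between -0.04 and 0.43 in sitter, CG3355 is split at Rover 2, and CG13318 is negative in both backgrounds.

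Most of the other listed serine proteases were not called in either background. A list of 43 measured family members, drawn from midgut trypsin-like, Jonah and cascade proteases and leaving out the 3 genes, had 9 members called negative in Rover, 1 positive and 33 not called (limma adjusted p under 0.05). Over all 19325 features, 45% were called negative in Rover and 1.7% positive. In sitter 4 members were called negative, 2 positive and 37 not, against 23% negative and 0.724% positive over all features. The median ratio of the list was -0.10 in Rover and -0.16 in sitter, against -0.39 and -0.21 over all features. Mean ratios of the listed genes lay between -1.27 and 0.70 in Rover and between -1.01 and 1.05 in sitter. The highest sitter mean was that of the homologue SPH93, with arrays from -0.64 to 2.47, which was not called (1.05 ± 1.47, SD, n = 4; limma adjusted p = 0.122). In the difference 0 of 43 were called by limma, against 0.0259% of features called negative and 0.0207% positive. At an unadjusted p under 0.05 there were 2 of 43 listed genes and 1816 of 19325 features.

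Counts for the list rested on the centring of the arrays. After centring on the array median, 2 members were called negative and 17 positive in Rover, against 25% and 22.7% of features. In sitter 1 was negative and 4 positive, against 11.5% and 2.28%. In the difference 0 of 43 were called by limma, against 0.0155% of features negative and 0.0621% positive. At an unadjusted p under 0.05 there were then 11 of 43 listed genes and 1718 of 19325 features. The median was then 0.28 in Rover and 0.02 in sitter, against -0.01 and -0.03 over all features. As deposited, the negative count in Rover was 4 without Rover replicate 2 and 4 without Rover replicate 3, while leaving out sitter replicate 2 or sitter replicate 3 brought the sitter count to 0.

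The cascade proteases CG9737 and CG9733 had the most negative called ratios in the list. CG9737 was at -1.27 ± 0.50 (SD, n = 4; limma adjusted p = 0.00476) in Rover and -1.01 ± 0.69 (SD, n = 4; 0.0275) in sitter, negative on all 8 arrays. CG9733 was at -0.89 in Rover (limma adjusted p = 0.00325) and -0.56 in sitter (0.0375), also negative on all 8 arrays, though in sitter it did not pass after centring (0.129). In Rover easter (ea), which cleaves the ligand of Toll in the embryo, was at -0.75 (limma adjusted p = 0.0154) and CG3505 at -0.61 (0.00506), and neither passed after centring (0.111 and 0.132). masquerade (mas), an inactive homologue required for muscle attachment, was at 0.39 in sitter (limma adjusted p = 0.0258). Of the 16 measured cascade genes 5 were called negative in Rover and 0 positive, against 45% and 1.7% of features, and 2 and 1 in sitter, against 23% and 0.724%. After centring 2 were negative and 4 positive in Rover, against 25% and 22.7% of features. In sitter 1 was then negative and 3 positive, against 11.5% and 2.28%. The relay proteases of Toll signalling grass (0.09), psh (-0.11), Hayan (-0.32) and SPE (-0.05) did not pass in Rover, though grass and SPE passed as positive after centring (limma adjusted p = 0.0161 and 0.0297).

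Midgut trypsin-like proteases were mostly not called. Of 18 measured genes 2 were called negative and 1 positive in Rover, against 45% and 1.7% of features. In sitter 0 were negative and 1 positive, against 23% and 0.724%. Phae1 was positive on all 8 arrays, at 0.53 ± 0.19 (SD, n = 4; limma adjusted p = 0.00434) for Rover. Its sitter mean was 0.34 ± 0.08 (SD, n = 4; limma adjusted p = 0.0443), and it passed in both backgrounds also after centring. The trypsin gene iotaTry was at -0.66 in Rover (limma adjusted p = 0.0216; 0.2 after centring). CG9676, chosen after its values were seen, was at -0.82 in Rover (limma adjusted p = 0.0289; 0.123 after centring), with Rover 1 at 0.18. After centring 11 of the 18 were called positive in Rover and 1 in sitter, against 22.7% and 2.28% of features. Of 10 Jonah genes, which encode larval midgut proteases, 2 were called negative in each background, against 45% of features in Rover and 23% in sitter. In sitter these were Jon99Fii at -0.50 (limma adjusted p = 0.038) and Jon66Ci at -0.48 (0.0495). After centring no Jonah gene was called negative, against 25% of features in Rover and 11.5% in sitter. Called positive were 3 in Rover and 0 in sitter, against 22.7% and 2.28%.

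Serpins, the inhibitors, split in sign. Of 9 measured genes 3 were called negative in Rover and 0 positive, against 45% and 1.7% of features. In sitter 2 were negative and 1 positive, against 23% and 0.724%. After centring 3 were negative and 3 positive in Rover, against 25% and 22.7% of features. In sitter the centred counts were 1 and 2, against 11.5% and 2.28%. Spn42De was at -1.15 in Rover (limma adjusted p = 0.00198) and -0.71 in sitter (0.0194), negative on all 8 arrays and called in both also after centring. Spn47C was at -0.995 in Rover (limma adjusted p = 0.00294) and -0.64 in sitter (0.0315), where it did not pass after centring (0.0716). Spn38F was at -1.34 ± 1.02 (SD, n = 4; limma adjusted p = 0.00866) in Rover, with Rover 3 at -2.83. Spn88Eb was at 0.73 in sitter (limma adjusted p = 0.0301). No serpin was called in the difference by limma, against 0.0259% of features negative and 0.0207% positive. At an unadjusted p under 0.05 there were 0 of 9 serpins and 1816 of 19325 features, too few serpins for this to set them apart.

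**Figure D2:**
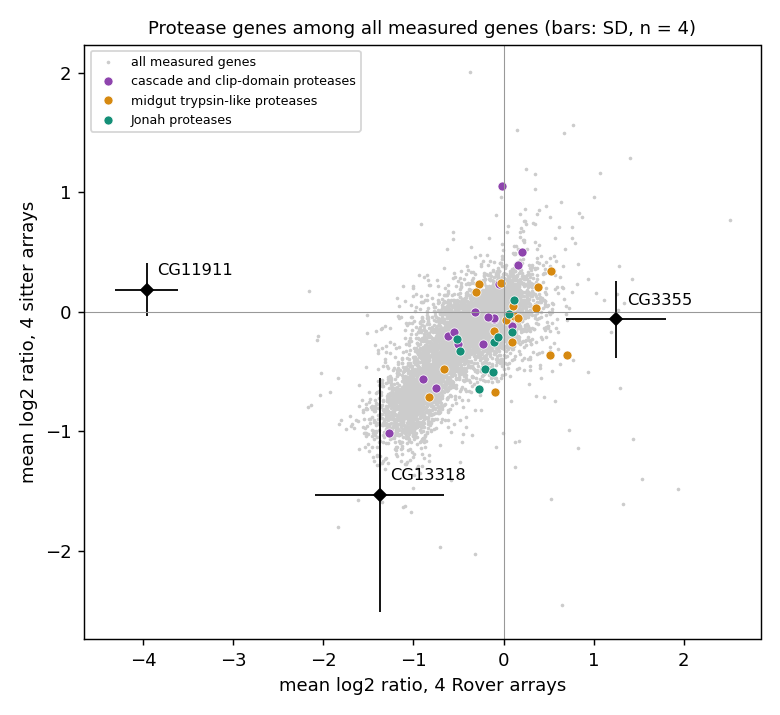
Mean log2 ratio over the 4 Rover arrays (horizontal axis) against that over the 4 sitter arrays (vertical axis) for 6793 genes, with the 43 listed proteases coloured by group and CG11911, CG3355 and CG13318 as black diamonds with SD bars (n = 4). CG11911 (-3.96, 0.19) and CG3355 (1.25, -0.06) lie off the main cloud along the Rover axis, while CG13318 (-1.38, -1.53) lies at its negative end.

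Neighbouring genes on the chromosome were read to see how far each pattern extended along it. CG11912, the next gene to CG11911 and also a listed midgut protease, stood at -0.59, -0.78, 0.36 and 0.61 in Rover. In sitter it read -0.42, -0.52, -1.33 and -0.40. Its means of -0.10 ± 0.69 and -0.67 ± 0.44 (SD, n = 4 each) did not differ by the test (0.57, limma adjusted p = 0.623), and its sign on the difference was opposite to that of CG11911. Plc21C, whose span holds CG11911, was negative on all 8 arrays, at -1.13 (limma adjusted p = 0.0037) in Rover and -0.68 (0.0488; 0.0919 after centring) in sitter, with a difference of -0.45 (0.639).

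Near CG3355, the measured neighbours ine, CG11929 and Elba3 had ratios of -0.06, -1.41 and -0.85 in Rover and -0.20, -1.13 and -0.31 in sitter. CG3251, 5 genes away, read 0.41, -0.15, 0.44 and -0.11 in Rover, and lay between 1.24 and 1.77 in sitter. Its arrays were thus split by background as those of CG3355 were, with the high group reversed: a difference of -1.38, which did not pass (limma adjusted p = 0.0708). Next to CG13318, CG8236 was at -1.05 (limma adjusted p = 0.00198) in Rover and -0.55 (0.0251; 0.0632 after centring) in sitter. The histone chaperone gene Nasp, 5 genes away, was positive on all 4 Rover arrays at 0.31 ± 0.05 (SD, n = 4; limma adjusted p = 0.0236), and at -0.14 in sitter (0.342). Of the 16 neighbours 10 were called negative and 1 positive in Rover, against 45% and 1.7% of features, and 5 and 1 in sitter, against 23% and 0.724%. After centring 6 were negative and 2 positive in Rover, against 25% and 22.7% of features. In sitter the centred counts were 2 and 1, against 11.5% and 2.28%. In the difference limma called 0 of 16. An unadjusted p under 0.05 was found for 5 of 16 neighbours, a larger share than the 1816 of 19325 features. These were Elba3 and CG3251 near CG3355, and CG8236, Nasp and hng2 near CG13318, with no neighbour of CG11911 among them. Elba3 and CG3251 had negative differences (-0.54 and -1.38), opposite to that of CG3355. Those near CG13318 were -0.50, 0.45 and -0.41, so the count does not show a pattern shared with the proteases.

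**Figure D3:**
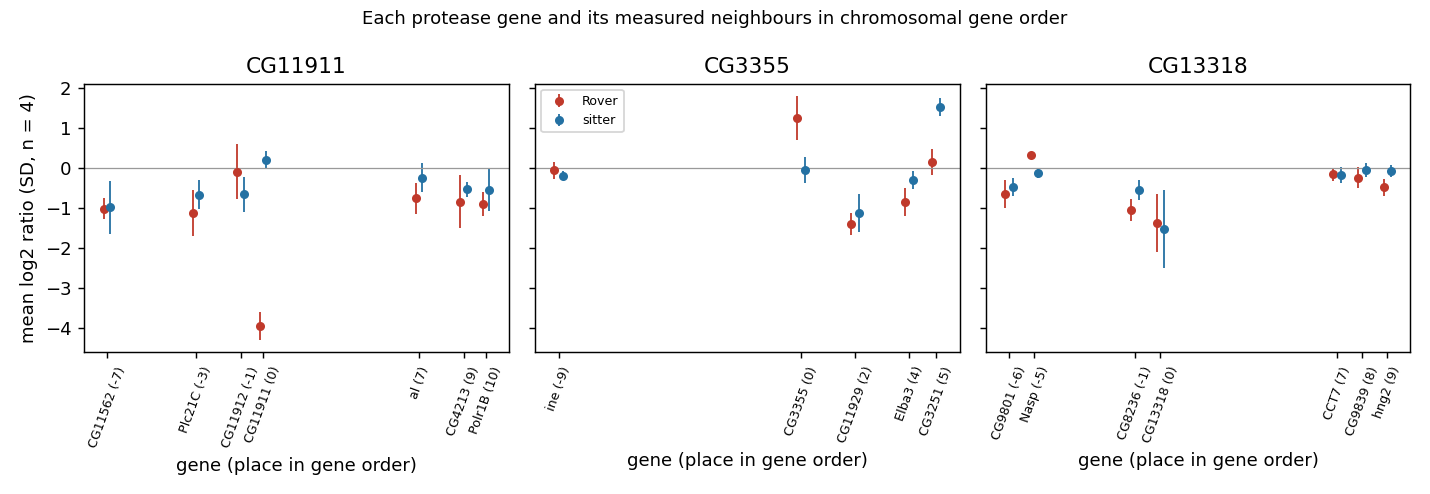
Mean log2 ratio (vertical axis; bars are SD, n = 4) of each protease gene and up to 3 measured neighbours per side, against place in chromosomal gene order (horizontal axis, the protease at 0), red for Rover and blue for sitter. The Rover value of CG11911 at -3.96 stands alone among its neighbours, whose Rover means run from -1.13 to -0.10.

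Profiles over the 8 arrays were compared with those of all other named genes by Pearson's r after subtracting array medians, as a description over arrays that share print lots and scanner settings. The genes most like CG11911 were CG17321 (r = 0.98), the cathepsin gene CtsL2 (0.97) and Rab26, for a small GTPase (0.97). All are split by background like CG11911 but much smaller in size: CG17321 ran from -0.79 to 0.14, CtsL2 from -1.37 to 0.20 and Rab26 from -1.24 to 0.25. As deposited, r was 0.98, 0.98 and 0.99.

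Likeness to CG3355 rested on the centring for part of its list. Capr (r = 0.98) and Clk (0.98), the circadian transcription factor gene, varied as deposited only from -0.01 to 0.19 and from -0.01 to 0.21, and without centring r was 0.02 and 0.45. The adenylyl cyclase gene Ac76E (r = 0.98, and 0.96 as deposited) was at 0.42, 0.31, 0.69 and 0.52 in Rover. In sitter it read 0.13, 0.08, -0.20 and -0.36. Every Rover array of Ac76E thus lay above every sitter array, with a difference of 0.57 that did not pass (limma adjusted p = 0.378). Ac76E was picked for its likeness to CG3355, so this split is no separate support.

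CG13318 ran closely with the cytochrome P450 gene Cyp312a1, at r = 0.97 with and without centring. This r used the mean of the CG13318 spots, which disagreed on sitter 4 (-1.28 and 0.38) and Rover 4 (-0.31 and -1.22). It was not computed by single spots. Cyp312a1 read -2.95, -1.02, -1.33 and -1.15 in Rover. In sitter it read -2.78, -1.78, -1.44 and -0.31. As for CG13318, for likeness to which it was picked, the arrays of lot A were the most negative in each background. The next genes were Hf (r = 0.97, and 0.79 as deposited) and eIF4G2 (0.94 and 0.91), which ran from -0.21 to 0.29 and from -0.89 to 0.28. Between the proteases themselves, r was -0.88 for CG11911 with CG3355, whose backgrounds are split in opposite directions, -0.23 for CG11911 with CG13318 and 0.10 for CG13318 with CG3355.

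**Figure D4:**
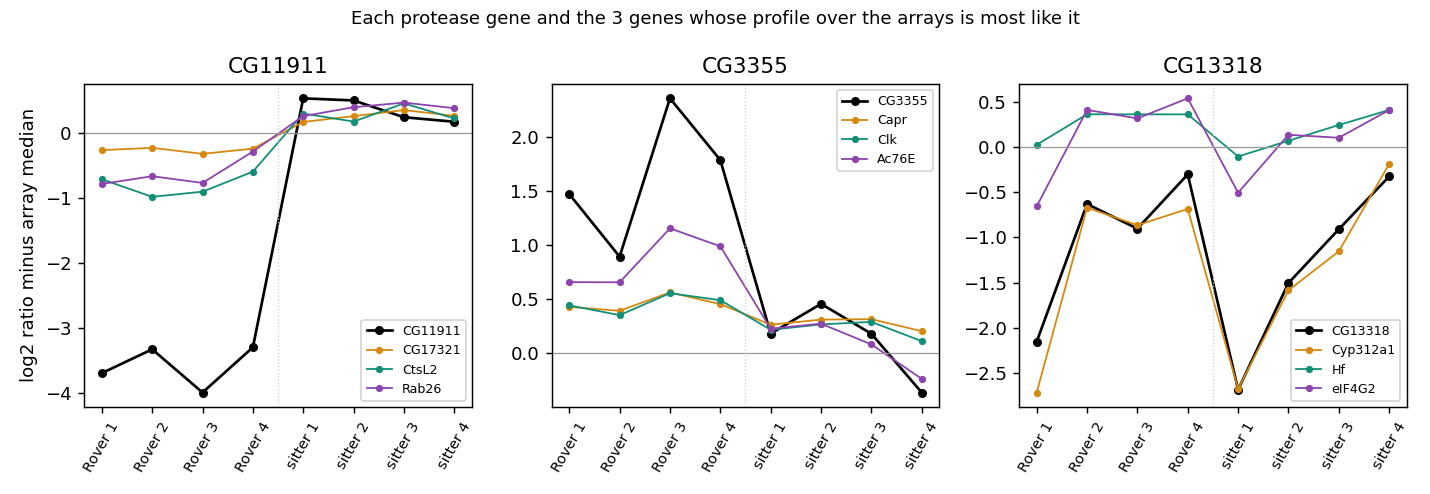
Log2 ratio minus the array median (vertical axis) over the 8 arrays (horizontal axis, a dotted line between Rover and sitter) for each protease gene in black and the 3 genes of most similar profile in colour. CG13318 and Cyp312a1 have nearly the same values on most arrays, whereas the genes like CG11911 share its split by background at a smaller size.

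Marker lists of larval tissues were read beside these ratios. As deposited, limma called 0 of their genes in the difference, against 0.0259% of features negative and 0.0207% positive. The median ratio of 7 measured of 10 listed fat body genes lay between 0.02 and 0.83 on the Rover arrays. On the sitter arrays it lay between -0.96 and -0.12, so this median did not overlap between the groups. Gene by gene in this list, only Fbp2 and apolpp were without overlap, and Yp2 had the opposite sign of difference (-0.29). Lack of overlap was not particular to fat body genes. The midgut gene Mal-A2 and the salivary gland gene ng2 also had none, with differences of -0.51 and -1.21. Nor did the blood cell genes PPO2 and PPO3 overlap. The share of all features without overlap was not counted. The medians of the other lists overlapped between the groups. The median of 7 of 12 midgut genes lay between -0.63 and 0.41 on Rover arrays and between -0.03 and 0.27 on sitter arrays. That of 9 of 10 blood cell genes lay between -0.56 and -0.12 on Rover arrays and between -0.65 and -0.13 on sitter arrays. That of 4 of 10 salivary gland genes lay between -1.24 and -0.18 on Rover arrays and between -0.23 and -0.03 on sitter arrays, and that of 3 of 9 cuticle genes between -0.87 and -0.35 and between -0.93 and 0.10. Within the blood cell list the prophenoloxidase gene PPO2, chosen after its values were seen, lay between 0.29 and 0.50 in Rover and between -0.78 and -0.32 in sitter, a split in the direction of that of CG3355. Its difference of 0.96 did not pass (limma adjusted p = 0.102) but did after centring (1.17, 0.0439). Of the other blood cell genes only PPO3 had a like difference (1.26), and crq was at 0.04. Those of Hml, NimC1, Pxn, Col4a1, vkg and eater were negative, between -0.30 and -0.03. The part of tissue makeup in the ratios of the proteases was not tested.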

How the data were processed

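The authors deposited 1 value per spot and array, taken here as a log2 ratio, which per the labels was derived from normalised intensities of slides scanned on a ScanArray system and quantified by QuantArray without background subtraction. How they were normalised: not given in the sources used here. Background correction, dim-spot filters and normalisation could not be varied, as no intensities were used.

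Spots were named from GEO's platform annotation (15116 with 1 symbol, 14894 of them matched to the Release 6 gene table), and spots of a gene were averaged per array. The 6793 genes and the remaining single spots, 19325 features in all, entered one fit over all 8 arrays (limma 3.58.1, R 4.3.3) that took a mean per background. Adjustment was by Benjamini-Hochberg. The fit was tested on simulated data.

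Named genes were the 3 proteases, up to 3 measured neighbours per side within 10 genes, the 3 genes of most similar profile, the 5 called family genes of largest ratio and consistent sign per background and direction, and up to 3 called serpins per background. Others are added for context: 4 Toll relay proteases and those that a count singled out, chosen after their values were seen. No protein sequences were used, so the family was a hand-written list. Members and lists were chosen with earlier results of these data known.

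The number of arrays limits the precision.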

Additional observations from a re-analysis of the deposited data

Results flagged for a closer look

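In 3 of 82 sets of 4 arrays checked among the named genes, 1 array stood far from the others. For independent sets chance gives 1 in 20. These sets share arrays, and some genes were picked for consistent sign or likeness, so the count cannot be set against that rate. CG11912, the neighbour of CG11911, read -1.33 on sitter 3, where the other sitter arrays gave -0.52 to -0.40. Cyp312a1, whose profile is most like that of CG13318, was at -2.95 on Rover 1 and between -1.33 and -1.02 on the other Rover arrays. CG17321 was at 0.14 on sitter 4 and at 0.07 on the other sitter arrays.

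The difference between backgrounds passed for 2 of the genes whose profile is most like that of CG11911, which were picked for that split. CtsL2 differed by -1.29 (limma adjusted p = 0.0396) and Rab26 by -1.21 (0.0437), and after centring neither passed (0.0528 and 0.076).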

How the results depend on the processing

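Of the protease genes, CG11911 kept its sign in each background under each alternative run, its Rover mean moving to -3.58 after centring and -3.00 after centring and scaling, its sitter mean to 0.46 and its difference to -3.47 after both. Leaving out single arrays gave Rover means of -4.05 to -3.79, sitter means of 0.10 to 0.26 and differences of -4.24 to -3.98. CG3355 kept a Rover mean of 1.03 to 1.48 and a difference of 1.09 to 1.54 when arrays were left out. Its sitter mean changed sign after centring (0.11), with scaling (0.092) and at the lower Cy5 gain (0.082), and with arrays left out it lay between -0.17 and 0.082, the last without sitter replicate 4 (limma adjusted p of 0.715 to 0.94). With arrays left out, the CG13318 means lay between -1.58 and -1.04 in Rover and between -1.89 and -1.11 in sitter, and its difference between -0.26 and 0.51. After centring its means were -0.997 in Rover and -1.36 in sitter, and with scaling -0.942 and -1.82, with a difference of 0.88. The difference was -0.037 by the second spot alone. The cause of these changes was not tested.

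Family counts moved with several settings. Negative calls in Rover went from 9 to 2 after centring and 2 after scaling as well, against 45%, 25% and 16.9% of features. Positive calls went from 1 to 17 and 8, against 1.7%, 22.7% and 14.2%. In sitter negative calls went from 4 to 1 and 2, against 23%, 11.5% and 24% of features. Positive calls there went from 2 to 4 and 8, against 0.724%, 2.28% and 10.8%. With print lot as a block, with the replicate block or in lot B alone, 7 were negative in sitter, and positive calls in sitter were 1 in lot B alone and 0 at the lower Cy5 gain. Same-numbered arrays deviated together at r of 0.31, 0.12, 0.06 and 0.06, and not every array correlated best with its own number, so the numbers were not taken as pairs. The replicate block changed no other family or serpin count by over 1.5 times. Counting genes whose spots were all called alike left 0 negative and 1 positive in sitter. Leaving out single arrays gave 4 to 9 negative and 1 to 3 positive in Rover, and 0 to 7 and 0 to 2 in sitter, where both counts were 0 without sitter replicate 2 or 3. In the difference the count stayed 0 under each of these. A wider family, 99 genes with a numbered SP or SPH synonym, chosen after seeing the data, had 36 negative (36.4%, against 45% of features) and 1 positive in Rover, 22 (22.2%, against 23%) and 2 in sitter, and 0 in the difference, with Rover means from -1.41 to 0.70. After centring it had 18 negative and 29 positive in Rover (18.2% and 29.3%, against 25% and 22.7% of features). In sitter it then had 6 and 4 (6.06% and 4.04%, against 11.5% and 2.28%).

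Serpins called positive in Rover went from 0 to 3 after centring and 2 with scaling, against 22.7% and 14.2% of features. In sitter the positive count went from 1 to 2 and 4, against 2.28% and 10.8% of features. It went to 0 at the lower Cy5 gain or by single spots. The negative count in sitter went from 2 to 1 after centring and 1 by single spots. With arrays left out, the counts were 3 to 4 negative in Rover and 0 to 3 negative and 0 to 1 positive in sitter. Signal over background was not used here, so dim spots could not be set apart.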
